A study of Mus musculus with 2 samples.

Results

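Imprinted genes are genes of which mainly the copy from 1 parent is used, and 35 of them were followed here in G1E, a mouse line of erythroid progenitors that lacks the transcription factor GATA1. The 35 genes were a named list of well-known mouse imprinted genes, and all 35 were found among the 43346 genes of the tables by symbol. The data were paired-end RNA-seq of poly(A) RNA from 2 libraries of this line, which form 1 group, so no treated or control cells were compared. The labels describe the line as an immortalized male, postnatal Gata1- erythroid progenitor, and both libraries carry that genotype with no added treatment. The labels number the libraries as biological replicates 1 and 2 but give them the same biosample, so the spread between them may be technical. The tables held 80658648 estimated read counts in replicate 2 and 61982634 in replicate 1. The erythroid marker genes Gata2, Tal1, Klf1, Gfi1b, Epor, Zfpm1 and Lyl1 lay between 102.5 and 1232 TPM (transcript abundance scaled to a fixed total per library), whereas the T cell, fibroblast, endothelial, liver, neuron, placenta and pluripotency markers examined were at 0 TPM in both libraries.

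Most imprinted genes lie in clusters, each governed by a control region whose DNA is methylated in the germ cells of 1 parent only. In several clusters a long non-coding RNA starts in the control region of the unmethylated copy, such as Airn at Igf2r and Kcnq1ot1 at Kcnq1, and it silences neighbouring protein genes on the same chromosome. Many of the products act on fetal and placental growth, for example the growth factor IGF2 and the receptor that clears it, IGF2R, and some genes are imprinted only in certain tissues: mouse Ube3a in neurons, Blcap in brain and Tssc4 in placenta. The tables sum RNA over both parental copies, so which copy a transcript came from was not measured, and the words maternal and paternal below name the copy known from other work to be the active one. In bulk RNA, fewer cells that express a gene and less RNA per cell cannot be told apart.

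The promoter windows of the genes that the values below turn on are shown first, because the control regions of Snrpn, Peg3 and Kcnq1ot1 lie at their promoters and because Gnas starts from several promoters. Each window runs from 250 bases before to 50 bases after a start in RefSeq on GRCm38.p6, is written 5′ to 3′ along the strand of the gene, and has every CpG, the dinucleotide that carries the methylation, in capitals. The Snrpn window is chr7:60005150-60005449 on the minus strand, with 7 CpGs. The Peg3 window is chr7:6730370-6730669 on the minus strand, with 13 CpGs. The Kcnq1ot1 window is chr7:143296498-143296797 on the minus strand, with 9 CpGs. The Gnas windows are chr2:174329756-174330055 for the Gs-alpha start, with 40 CpGs, and chr2:174284070-174284369 for the Nesp start, with 16 CpGs, both on the plus strand.
Snrpn: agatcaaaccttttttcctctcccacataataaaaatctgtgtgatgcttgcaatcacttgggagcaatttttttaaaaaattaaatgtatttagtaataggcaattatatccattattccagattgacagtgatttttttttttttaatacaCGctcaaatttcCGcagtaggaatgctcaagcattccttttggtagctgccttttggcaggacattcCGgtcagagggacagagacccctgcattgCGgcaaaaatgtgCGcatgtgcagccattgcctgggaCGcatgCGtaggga
Peg3: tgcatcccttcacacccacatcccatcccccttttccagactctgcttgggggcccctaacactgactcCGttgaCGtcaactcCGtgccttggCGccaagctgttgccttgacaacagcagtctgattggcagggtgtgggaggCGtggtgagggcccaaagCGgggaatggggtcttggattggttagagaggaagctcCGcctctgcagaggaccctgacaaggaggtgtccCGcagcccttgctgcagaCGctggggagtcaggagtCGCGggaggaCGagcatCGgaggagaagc
Kcnq1ot1: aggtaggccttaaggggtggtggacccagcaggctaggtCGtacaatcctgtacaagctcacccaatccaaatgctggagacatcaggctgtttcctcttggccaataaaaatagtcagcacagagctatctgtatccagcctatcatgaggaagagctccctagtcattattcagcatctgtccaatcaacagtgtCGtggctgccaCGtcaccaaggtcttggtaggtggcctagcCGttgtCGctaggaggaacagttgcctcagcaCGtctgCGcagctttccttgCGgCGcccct
Gnas Gs-alpha: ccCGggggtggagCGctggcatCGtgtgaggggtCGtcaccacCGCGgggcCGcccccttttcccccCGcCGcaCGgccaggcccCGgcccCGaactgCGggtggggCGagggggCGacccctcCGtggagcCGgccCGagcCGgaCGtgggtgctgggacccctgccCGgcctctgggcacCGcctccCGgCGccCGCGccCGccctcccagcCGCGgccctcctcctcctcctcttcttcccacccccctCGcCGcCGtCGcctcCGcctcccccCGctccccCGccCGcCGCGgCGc
Gnas Nesp: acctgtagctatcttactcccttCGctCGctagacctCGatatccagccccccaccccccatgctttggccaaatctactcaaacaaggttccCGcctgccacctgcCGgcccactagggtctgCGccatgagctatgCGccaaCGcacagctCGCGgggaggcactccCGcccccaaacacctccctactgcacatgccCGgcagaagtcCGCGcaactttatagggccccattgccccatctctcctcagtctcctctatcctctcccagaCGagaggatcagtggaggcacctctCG

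Windows were found for 29 of the 35 genes, and those for H19, Kcnq1, Peg10, Impact, Rtl1 and Sgce were not used here. The median of each gene's CpG-richest window was 17 CpGs for the 29 imprinted genes and 8 for all 27025 genes with a window. The letters TGCCGC, the core of the sequence that the zinc finger protein ZFP57 binds when methylated, were searched on both strands. They were present in a window of 10 of the 29 imprinted genes (34.5%), against 13.1% of all genes. Counted by window, the shares were 26.2% of 42 windows and 11.6% of 32851, since genes differ in their number of windows. The letters include a CpG, and the higher CpG number of the imprinted windows was not adjusted for. Of the genes with RNA described below, Snrpn has them in the window above and Copg2 in its own. Another 8 are Grb10, Igf2, Meg3, Mest, Nap1l5, Nnat, Plagl1 and Zim1, none of which reached 1 TPM in both libraries. These are matches of letters in the reference and say nothing about binding in these cells. The windows of Peg3 and its neighbour Usp29, which are transcribed away from each other, share 263 bases.

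Of the 35 imprinted genes, 12 were detected, meaning 1 TPM or more in both libraries, which is 34.3% of them. The same rule held for 21.1% of all genes, 40.0% of protein-coding genes and 3.09% of long non-coding RNA genes. Among the 29 protein-coding members 11 were detected (37.9%), close to the share of all protein-coding genes, and among the 6 non-coding members only Airn was. The detected genes were Gnas, Tssc4, Snrpn, Copg2, Phlda2, Igf2r, Blcap, Ube3a, Slc22a18, Peg3, Airn and Mkrn3. A further 12 members had a count of 0 in both libraries (34.3%), against 62.4% of all genes and 39.4% of protein-coding genes. Over all 35 the median log2(TPM + 1) was 0.03 in replicate 2 and 0.08 in replicate 1. It was 0.04 in each library for protein-coding genes and 0 in each for all genes. These medians lie far below 1 TPM and show only that most genes of each set were not detected. The 12 detected members had medians of 18.7 TPM in replicate 2 and 15.0 TPM in replicate 1.

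Of the 15 clusters represented, 7 had at least 1 detected member and 8 had none. Of the 15 genes known as maternally expressed, 7 were detected: Igf2r, Copg2, Ube3a, Blcap, Phlda2, Slc22a18 and Tssc4. Of the 19 known as paternally expressed, 4 were detected: Snrpn, Peg3, Mkrn3 and Airn. Counts of 0 in both libraries were found for 5 maternal and 7 paternal genes. The summed level was 295.9 TPM in replicate 2 and 305.6 TPM in replicate 1 for the maternal genes, and 88.4 and 101.3 TPM for the paternal genes in replicates 2 and 1. Each sum came mostly from 1 gene. Tssc4 gave 188.3 and 232.7 TPM of the maternal sum in replicates 2 and 1, and Snrpn gave 80.7 and 95.0 TPM of the paternal sum. Gnas, whose promoters are imprinted differently, was set apart from both classes. These classes were assigned by hand from general knowledge of the mouse. Ube3a, Blcap and Tssc4 were counted as maternal although they are imprinted only in the tissues named above. The counts and sums therefore do not measure RNA from either parental copy.

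**Figure D1:**
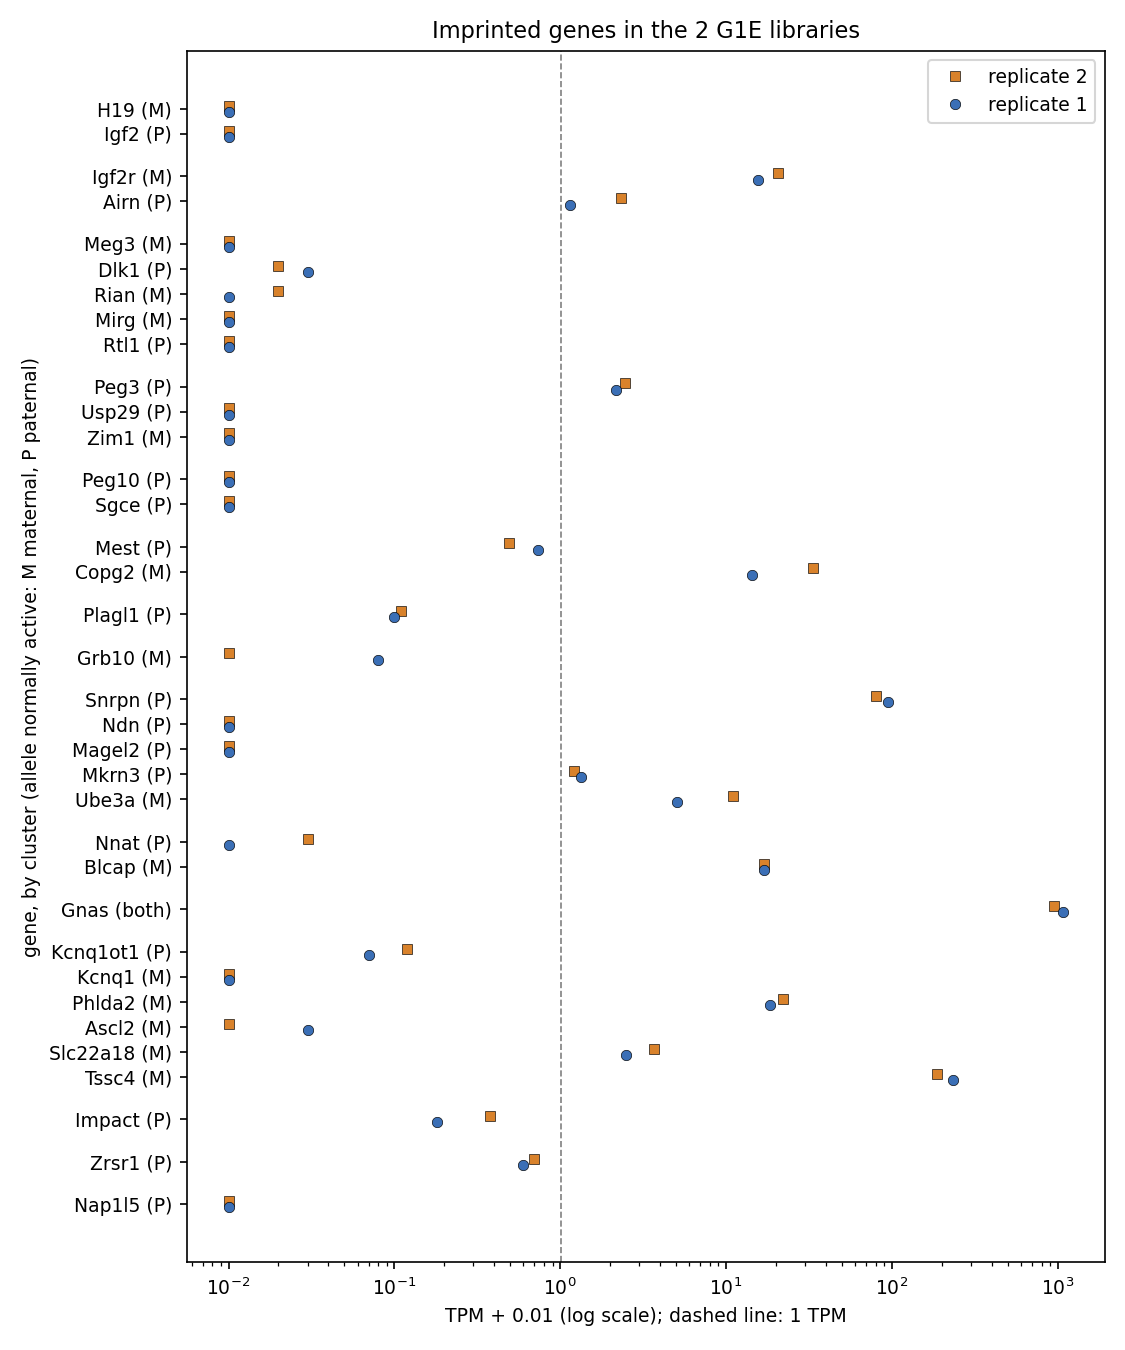
Level of each of the 35 imprinted genes in both libraries (TPM + 0.01, log scale), grouped by cluster, with the normally active copy in brackets (M maternal, P paternal) and a dashed line at 1 TPM. The 12 detected genes lie right of the line in both libraries, with Gnas at 944.2 TPM in replicate 2 and 1077 TPM in replicate 1, and points at the left edge are genes at 0 TPM.

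Gnas, which encodes the alpha subunit of the stimulatory G protein that couples receptors to cyclic AMP, was by far the most abundant (gene ENSMUSG00000027523, chromosome 2). It stood at 944.2 TPM in replicate 2 and 1077 TPM in replicate 1, from 128452 and 116907 counts in replicates 2 and 1, a mean of 1011 ± 94.0 TPM (SD, n = 2). By its mean it stood at percentile 98.5 of detected genes. It alone made up 71.1% of the summed TPM of the 35 genes in replicate 2 and 72.6% in replicate 1, and together with Tssc4 and Snrpn it made up 91.3% and 94.7% in replicates 2 and 1.

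The gene has several first exons spliced to shared later exons: Nesp, from the maternal copy, makes the secretory protein NESP55; XL, from the paternal copy, makes the large G protein variant XLαs; exon 1A, from the paternal copy, makes an untranslated RNA at the control region; and the last one makes Gs-alpha, from both copies in most tissues. Transcripts were assigned to these by their start position. Transcripts from the Gs-alpha start held 77.7% of the TPM of the gene in replicate 2 and 76.9% in replicate 1, that is 733.5 and 828.8 TPM. Those from XL held 14.2% in replicate 2 and 13.8% in replicate 1, or 134.5 and 148.3 TPM. Those from exon 1A held 7.96% in replicate 2 and 9.26% in replicate 1, or 75.2 and 99.7 TPM. Most of this was given to Gnas-202, with 39.6 TPM in replicate 2 and 57.1 TPM in replicate 1. Gnas-202 is annotated as protein-coding and runs past the Gs-alpha start to the end of the gene. The 1A share is therefore not all untranslated RNA by annotation. The Nesp start, the most upstream, was close to empty, with 3.00 counts and 0.02 TPM in replicate 2 and 3.07 counts and 0.04 TPM in replicate 1. The order of the starts was the same in both libraries, and the shares of Gs-alpha, XL and 1A were 77.3 ± 0.52, 14.0 ± 0.34 and 8.61 ± 0.92 percent (SD, n = 2).

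The leading transcript, Gnas-208 which starts just past the CpG-rich Gs-alpha window printed above, carried 60.5% in replicate 2 and 59.3% in replicate 1. The 24 annotated Gnas transcripts share most exons, so the division of reads among them is a model estimate; XL entries of the same length and start (Gnas-223 and Gnas-224) were given equal values of 48.0 TPM in replicate 2 and 46.7 TPM in replicate 1. Reads of the antisense RNA Nespas, which is transcribed across Nesp, came to 175 counts and 1.40 TPM in replicate 2 and 112 counts and 1.01 TPM in replicate 1. Nespas overlaps 988 bases of Gnas exons on the other strand, and whether the counting used strand is not given in the sources used here, so reads in that overlap are uncertain.

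**Figure D2:**
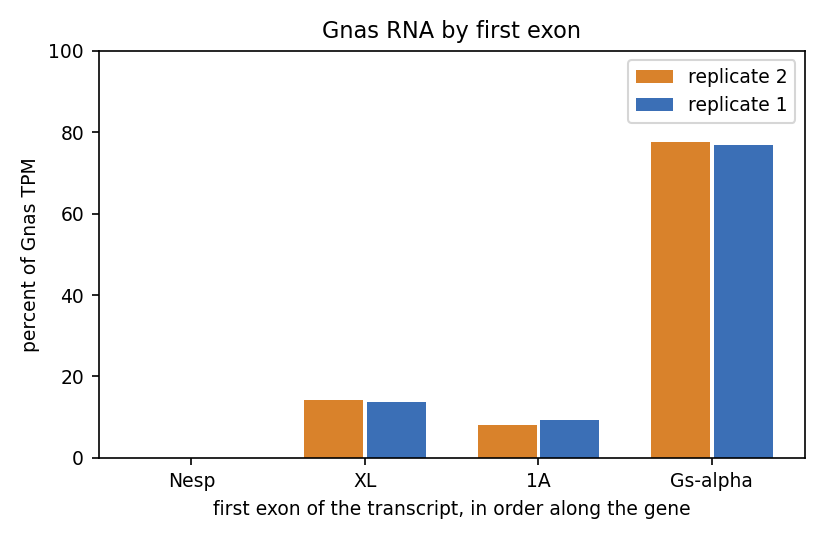
Percent of Gnas TPM given to transcripts that begin at each first exon, in order along the gene, with 1 bar per library. Gs-alpha holds 77.7% in replicate 2 and 76.9% in replicate 1, and no bar is visible for Nesp, which had 3.00 and 3.07 counts.

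The Kcnq1 domain on distal chromosome 7 held the next highest imprinted gene. In this domain Kcnq1ot1, the paternally expressed RNA antisense to the potassium channel gene Kcnq1, is known to silence neighbouring genes in cis. Tssc4, which encodes a protein of spliceosome assembly, reached 188.3 TPM in replicate 2 and 232.7 TPM in replicate 1 (mean 210.5 ± 31.4, SD, n = 2). Phlda2, which encodes a pleckstrin homology protein that limits placental growth, had 22.1 TPM in replicate 2 and 18.3 TPM in replicate 1. Slc22a18, a transporter of the organic cation family, had 3.66 TPM in replicate 2 and 2.49 TPM in replicate 1. Those 3 genes were detected and the other 3 members of the domain were not.

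Kcnq1 itself had 0 counts in both libraries, which allows up to 0.0597 TPM in replicate 2 and 0.0752 TPM in replicate 1, taking 3 counts as the limit of a count of 0. Ascl2, a transcription factor of the placental lineage, had 0 counts in replicate 2 and 2 in replicate 1. Kcnq1ot1 had 643 counts in replicate 2 and 290 in replicate 1, but its annotated length of 84395 bases turns these into 0.11 TPM and 0.06 TPM, or 7.62 and 3.44 counts per kb. It shares 121 exonic bases, 0.13% of its own, with Kcnq1 on the other strand. No allele could be read from these values, so which parental chromosome carried Kcnq1ot1 RNA was not measured.

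Along the chromosome, genes with and without RNA lay side by side. Measured from the start of Kcnq1ot1, Kcnq1 (190.2 kb on the side of lower coordinates) was at 0 counts while Tssc4 (227.3 kb), Cd81 (243.8 kb) and Tspan32 (291.5 kb) beyond it were detected. Cd81, a tetraspanin of the cell surface, had 186.6 TPM in replicate 2 and 148.1 TPM in replicate 1, and Tspan32, another tetraspanin, had 58.7 and 56.0 TPM in replicates 2 and 1. On the other side, Cdkn1c, a maternally expressed cell cycle inhibitor 164.5 kb away, had 3 counts in replicate 2 and 4 in replicate 1. Slc22a18 (177.2 kb), Phlda2 (206.6 kb) and Nap1l4 (252.6 kb) beyond it were detected, and Nap1l4, a histone chaperone, had 75.9 TPM in replicate 2 and 49.2 TPM in replicate 1. Osbpl5, at 460.4 kb, had 0 counts in replicate 2 and 3 in replicate 1.

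**Figure D3:**
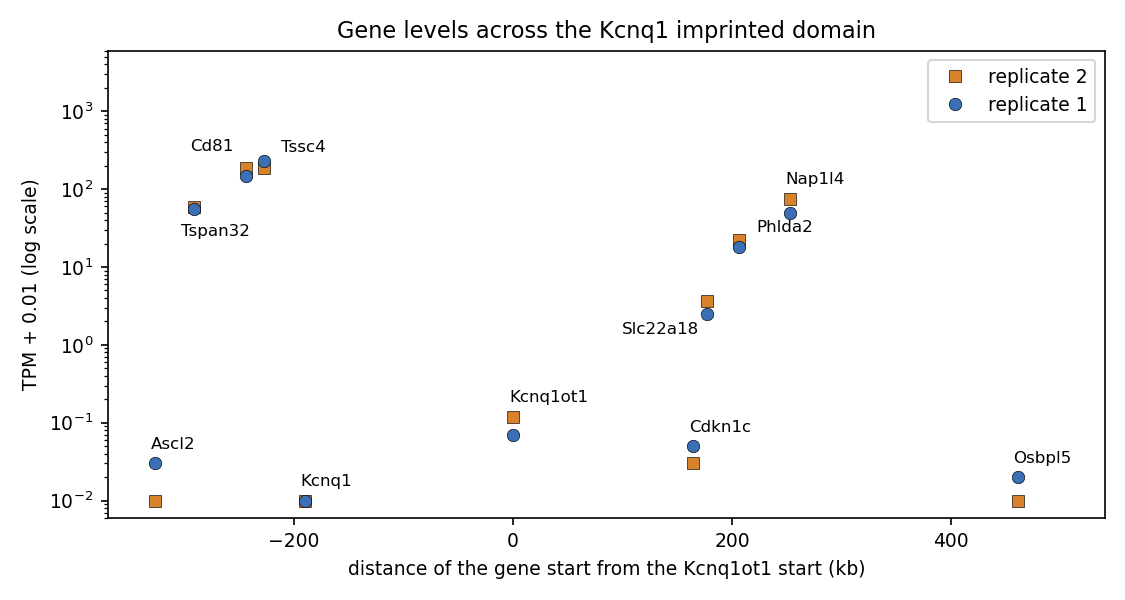
Level of 11 genes of the Kcnq1 domain (TPM + 0.01, log scale) against the distance of each gene start from that of Kcnq1ot1 in kb, with squares for replicate 2 and circles for replicate 1. Kcnq1, Ascl2, Cdkn1c and Osbpl5 lie below 0.1 TPM beside genes such as Tssc4, at 188.3 TPM in replicate 2 and 232.7 TPM in replicate 1.

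Snrpn, which encodes SmN, a core protein of spliceosomal ribonucleoproteins, was the highest of the paternally expressed genes and lies in the central chromosome 7 cluster that corresponds to the human Prader-Willi and Angelman region. It had 80.7 TPM in replicate 2 and 95.0 TPM in replicate 1 (mean 87.8 ± 10.2, SD, n = 2). All of its TPM (100% in each library) was given to Snrpn-201, at 59982495 to 60005111 on chromosome 7, whose start lies just past the window printed above. Its upstream open reading frame is listed as a separate gene, Snurf, with 0 counts in both libraries; since Snurf and Snrpn share exons, this division of reads is uncertain.

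The genes further along the cluster differed from Snrpn. Mkrn3, a makorin RING finger protein, had 1.20 TPM in replicate 2 and 1.32 TPM in replicate 1, just above the threshold of detection and at percentile 1.01 of detected genes. Ndn and Magel2, both of the MAGE family and both active in neurons, had 0 counts in both libraries, and their limits were 0.0282 and 0.00940 TPM in replicate 2 and 0.0356 and 0.0119 TPM in replicate 1. Ube3a, a ubiquitin ligase, had 11.1 TPM in replicate 2 and 5.08 TPM in replicate 1. Its level was 0.137 times that of Snrpn in replicate 2 and 0.0535 times in replicate 1. The log2 value, with 0.1 TPM added to each level, was -3.53 ± 0.95 (SD, n = 2). The antisense RNA Snhg14, which silences the paternal Ube3a copy in neurons and was looked at after its values were seen, had 53 counts in replicate 2 and 15 in replicate 1. It overlaps 1803 bases of Ube3a exons on the other strand.

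Igf2r, the receptor that clears IGF2 and carries mannose-6-phosphate proteins to lysosomes, had 20.5 TPM in replicate 2 and 15.6 TPM in replicate 1 (mean 18.1 ± 3.49, SD, n = 2). Its full coding transcript Igf2r-201 carried 99.4% in replicate 2 and 99.6% in replicate 1. Airn, the antisense non-coding RNA of this cluster, starts inside Igf2r, runs the other way and is known to silence the paternal Igf2r copy. It had 2.32 TPM from 186 counts in replicate 2 and 1.14 TPM from 73 counts in replicate 1, and was the only non-coding member detected. Its TPM rests on a spliced length of 1283 bases in replicate 2 and 1286 in replicate 1. Kcnq1ot1, with more counts, was scored on 84395 bases, so the detection of Airn and its ratio to Igf2r depend on the annotated length. Igf2r was 8.84-fold above Airn in replicate 2 and 13.7-fold above it in replicate 1. On the log2 scale, with 0.1 TPM added to each level, this was 3.38 ± 0.40 (SD, n = 2).

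Most of the Airn level was given to a transcript annotated to start beyond Igf2r. The transcript Airn-205, at 12815931 to 12830335 on chromosome 17, carried 69.7% in replicate 2 and 66.1% in replicate 1, with 140 and 52 counts. It starts 74.6 kb downstream of the first annotated Airn start, which lies within Igf2r, and 46.3 kb past the 5′ end of Igf2r. Airn-201, which starts within Igf2r, held 44.9 counts and 0.66 TPM in replicate 2 and 21 counts and 0.39 TPM in replicate 1. Other Airn transcripts start within Igf2r and run through the region of Airn-205, among them Airn-204 and Airn-206 with 0 counts in both libraries, so this division rests on the counting model. The exons of Airn and Igf2r share no bases in the annotation.

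Peg3, a large zinc finger protein that acts on growth and maternal behaviour, had 2.46 TPM in replicate 2 and 2.15 TPM in replicate 1. Its neighbour Usp29, whose annotated gene start lies 147 bases away on the other strand at the same control region, had 0 counts in both. The only Usp29 transcript counted starts at 6961160 on chromosome 7, far from that gene start at 6730578. Usp29 RNA from the shared control region would be counted only where its reads fall in this transcript. The 0 counts therefore do not show whether RNA starts on the Usp29 side of that region. With 3 counts as the limit for Usp29, Peg3 was at least 143-fold higher than this Usp29 transcript in replicate 2 and at least 98.7-fold higher in replicate 1. Zim1, a maternally expressed zinc finger gene of the same cluster, also had 0 counts in both. The main coding transcript, which starts in the window printed above, carried 89.9% of the Peg3 TPM in replicate 2 and 90.3% in replicate 1.

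Copg2, which encodes a coat protein subunit of vesicles between Golgi and endoplasmic reticulum, had 33.4 TPM in replicate 2 and 14.3 TPM in replicate 1 (mean 23.9 ± 13.5, SD, n = 2). Most of this was assigned to a processed transcript of 834 bases, with 95.0% in replicate 2 and 91.8% in replicate 1. The full-length coding transcript had 1.64 TPM from 442.0 counts in replicate 2 and 1.08 TPM from 229.5 counts in replicate 1. The gene level is therefore mostly that of a short transcript with no annotated protein. Mest, a paternally expressed gene of the hydrolase family that overlaps Copg2 tail to tail by 912 exonic bases, had 14 counts and 0.48 TPM in replicate 2 and 15 counts and 0.72 TPM in replicate 1. Copg2 was 69.5-fold above Mest in replicate 2 and 19.9-fold above it in replicate 1. The mean log2 value, 4.99 ± 1.21 (SD, n = 2), rests on those few Mest counts.

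Blcap, a small membrane protein gene, had 16.8 TPM in replicate 2 and 17.02 TPM in replicate 1. Nnat, the paternally expressed brain proteolipid gene that lies inside Blcap, had 1 count in replicate 2 and 0 in replicate 1, and Blcap was at least 223-fold higher than Nnat in replicate 1. Zrsr1, a retrogene of a splicing factor inside an intron of Commd1, had 0.69 TPM in replicate 2 and 0.59 TPM in replicate 1. Its host Commd1, a regulator of copper handling, had 34.5 TPM in replicate 2 and 27.3 TPM in replicate 1, so that Zrsr1 was 0.0200 times its host in replicate 2 and 0.0216 times in replicate 1. This ratio depends on the length used: the log2 value was -5.38 ± 0.10 (SD, n = 2) from TPM and -2.62 from counts per annotated length. The host overlaps 412 exonic bases of Zrsr1 on the other strand, so part of these reads is uncertain. Nap1l5, a retrogene inside Herc3, had 0 counts in both libraries, and Herc3 itself had 17 counts in replicate 2 and 7 in replicate 1.

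The remaining clusters held few or no counts. H19, the maternal non-coding RNA, and Igf2, the paternal fetal growth factor gene, had 0 counts in both libraries, with limits of 0.0378 and 0.0229 TPM in replicate 2 and 0.0478 and 0.0289 TPM in replicate 1. In the Dlk1/Meg3 cluster, Dlk1, a Notch-like ligand gene, had 1 count in each library. Meg3 and Mirg, non-coding RNAs from the maternal copy, had 0 counts in both, and Rian, another of them, had 2 counts in replicate 2 and 0 in replicate 1. Rtl1, derived from a retrotransposon, had 0 and 1 counts in replicates 2 and 1. All 5 genes together held 3 counts in replicate 2 and 2 in replicate 1. Peg10, also derived from a retrotransposon, and its neighbour Sgce, which encodes epsilon-sarcoglycan, had 0 counts in both. Grb10, an adaptor that restrains insulin and growth factor signalling, had 1 count in replicate 2 and 3 in replicate 1.

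Plagl1 and Impact lay between these silent genes and the detected ones. Plagl1, a zinc finger regulator of growth, had 18 counts in each library, or 0.10 TPM in replicate 2 and 0.09 TPM in replicate 1. Impact, an inhibitor of the stress kinase GCN2, had 87 counts and 0.37 TPM in replicate 2 and 32 counts and 0.17 TPM in replicate 1. Members with no RNA seen at this depth may still be present below the limits given.

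The libraries were also compared, to see how far an imprinted gene's level depends on the library. For each of 11636 genes, rounded counts were set against the TMM-scaled totals in an exact conditional binomial test, two-sided, with Benjamini-Hochberg adjustment over all of them and replicate 2 over replicate 1 as the ratio. The test accounts for counting error alone and compares 2 libraries, not conditions. Of the 17 imprinted genes with enough counts to be tested, 0 passed adjusted p under 0.05 with at least 2-fold change, while 5.62% of all tested genes did, 3.82% higher in replicate 2 and 1.80% lower. At an unadjusted p under 0.05, 12 of the 17 differed, beside 7752 of the 11636 genes tested. A negative binomial exact test in edgeR was also run, with its dispersion estimated from the same 2 libraries taken as 1 group. The difference under test thus set its own error, so that test cannot decide whether a gene differed. Without a fold requirement 11 of 17 differed, 7 higher in replicate 2 and 4 lower, beside 64.4% of all tested genes, of which 32.2% were higher and 32.2% lower.

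The ratios themselves ran from -0.60 for Mest, with few counts, to 0.96 for Ube3a on the log2 scale. Ube3a was 1.95-fold higher in replicate 2 (exact binomial test, adjusted p = 3.8e-110), Copg2 1.90-fold (adjusted p = 2.7e-53), Impact 1.92-fold (adjusted p = 0.00261) and Airn 1.80-fold (adjusted p = 3.1e-05) by the same exact test. Kcnq1ot1 was 1.57-fold higher in replicate 2 (exact binomial test, adjusted p = 2.7e-10). Tssc4, Snrpn and Gnas lay the other way, with log2 ratios of -0.42, -0.40 and -0.36. Peg3, Zrsr1 and Phlda2 had log2 ratios of 0.03, 0.08 and 0.11 and did not pass the test. On the TPM scale, which takes in each library's effective length and leaves out the TMM factors, some genes passed 2-fold. There replicate 2 was 2.33-fold higher for Copg2, 2.18-fold for Ube3a, 2.18-fold for Impact and 2.04-fold for Airn. The effective length of Ube3a was nearly the same in both libraries, at 4949 bases in replicate 2 and 4953 in replicate 1.

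The ratios moved with base composition. Over the 17 tested imprinted genes, GC content of the leading transcript and the log2 ratio had a Spearman rho of -0.60, and over 11493 tested genes with a GC value it was -0.29; genes of 1 library pair share its depth, so this is a description. Ube3a and Kcnq1ot1, at 39.6% and 40.3% GC, were higher in replicate 2, and Tssc4, at 60.2%, was lower. Snrpn, at 44.8% GC and a log2 ratio of -0.40, and Slc22a18, at 57.0% GC and 0.32, lay against this order. With an offset for the trend of all genes on GC content, added after seeing the data, the log2 ratio was 0.69 for Ube3a, 0.40 for Kcnq1ot1, 0.82 for Copg2, 0.76 for Airn and -0.24 for Tssc4, and -0.52 for Snrpn and 0.38 for Slc22a18.

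**Figure D4:**
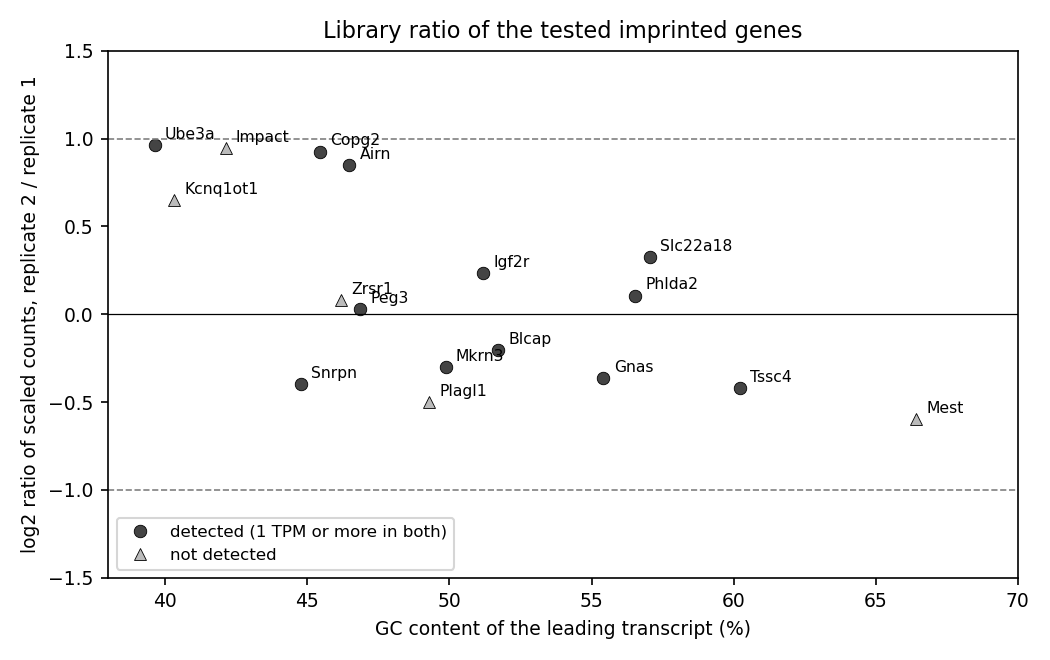
Log2 ratio of scaled counts, replicate 2 over replicate 1, against the GC content of the leading transcript in percent for the 17 tested imprinted genes, with dashed lines at 2-fold in each direction. No gene passes a dashed line, Ube3a is the nearest at 0.96, and the Spearman rho is -0.60.

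A further list of 42 imprinted genes, of which 39 were matched, gave a similar share: 14 were detected (35.9%) and 13 had 0 counts in both libraries. Of the 15 that could be tested between the libraries, 0 were called, beside 5.62% of all tested genes. By mean level the first of them were Cd81, Nap1l4, H13, Tspan32, Pon2, Commd1, Sfmbt2, Trappc9, Inpp5f and Casd1. H13, a signal peptide peptidase, had 55.0 TPM in replicate 2 and 60.2 TPM in replicate 1, close to the level of Tspan32 given above. Pon2, a paraoxonase, had 37.1 TPM in replicate 2 and 31.6 TPM in replicate 1. Casd1, an enzyme that acetylates sialic acids, had 3.24 TPM in replicate 2 and 3.47 TPM in replicate 1. Trappc9, a subunit of a vesicle tethering complex, had 20.5 TPM in replicate 2 and 17.8 TPM in replicate 1. Mcts2, a retrogene inside H13 chosen after its values were seen, had 2.59 TPM in replicate 2 and 2.04 TPM in replicate 1.

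Genes known to set or keep imprints were mostly detected, 18 of 24 (75.0%), beside 40.0% of protein-coding genes. Between the libraries 0 of the 18 tested were called, beside 5.62% of all tested genes. With lists this short, neither 0 sets them apart from other genes. Ehmt2, a histone H3 lysine methyltransferase also called G9a, was the highest, at 349.0 TPM in replicate 2 and 441.5 TPM in replicate 1, and its partner Ehmt1 had 60.6 and 68.5 TPM in replicates 2 and 1. The maintenance methyltransferase gene Dnmt1 had 208.6 TPM in replicate 2 and 155.1 TPM in replicate 1, and Uhrf1, which brings it to replicated DNA, had 200.5 and 189.1 TPM in replicates 2 and 1. Trim28, the corepressor that zinc finger proteins bring to imprinted control regions, had 221.7 TPM in replicate 2 and 199.2 TPM in replicate 1. Ctcf, the insulator protein of the H19 control region, had 156.9 TPM in replicate 2 and 187.3 TPM in replicate 1. Setdb1, the histone methyltransferase that works with TRIM28, had 66.7 TPM in replicate 2 and 71.7 TPM in replicate 1. Of the polycomb repressive genes, Eed had 194.6 TPM in replicate 2 and 137.1 TPM in replicate 1, and Suz12 had 44.1 and 59.8 TPM in replicates 2 and 1. Tet3, a dioxygenase that oxidises methylated cytosine, had 69.1 TPM in replicate 2 and 39.2 TPM in replicate 1. The others named here were chosen after their values were seen. Of the zinc finger proteins that guard imprints, Zfp57 was at 0 counts in both libraries, while Zfp445 had 2.89 TPM in replicate 2 and 2.07 TPM in replicate 1. Dnmt3l and Dppa3, which act in germ cells and the early embryo, and the CTCF relative Ctcfl were at 0 in both. Of the de novo methyltransferases, Dnmt3b had 32.8 TPM in replicate 2 and 27.5 TPM in replicate 1, and Dnmt3a had 0.04 TPM in each.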

How the data were processed

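Poly(A) RNA of 2 G1E libraries was measured. Per the file headers and the deposited descriptions, the authors gave expected counts (estimated, not whole), TPM scaled by effective length and library total, and the percent of the gene's TPM held by each transcript, on mm10 with annotation M4. The aligner, the counter and whether reads were counted by strand were not given in the sources used here. From these, 42462 of 43346 genes (98.0%) were matched by identifier to GENCODE M21, on the same assembly, for symbols and positions. Expected counts were rounded for tests. Detection meant 1 TPM in both libraries; tests needed 10 counts in at least 1 library. Scaling used TMM (edgeR 4.0.16, R 4.3.3; factors 1.04 for replicate 2 and 0.960 for replicate 1). With 1 library on each side no quasi-likelihood fit could be made, so the exact conditional binomial test was used. It was tried on simulated counts with counting error alone, which does not show how it handles other differences between libraries. The limit of a count of 0 was 3 counts; it covers counting error only, since reads without molecular identifiers are not independent molecules. All 35 members were named by rule, as were the further lists of imprinted and imprint-keeping genes, from which up to 10 with the highest mean TPM and those in clusters of detected members were named; others are said to be chosen after their values were seen. Members and lists were chosen with earlier results of these data known. Alternatives were other scalings, filters, folds, pseudocounts, posterior mean TPM, a negative binomial test, leaving out a library and, added after seeing the data, a lowess offset on GC content.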

Additional observations from a re-analysis of the deposited data

How the results depend on the processing

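Detection held for the same 12 genes with either library left out. It rose to 15 at 0.1 TPM (adding Impact, Mest and Zrsr1), fell to 8 at 5 TPM (losing Airn, Mkrn3, Peg3 and Slc22a18) and was 13 by posterior mean TPM (adding Plagl1). The median level was -2.85 with a pseudocount of 0.1 and 0.44 by posterior mean TPM, which adds a prior to empty genes. With a pseudocount of 1 TPM the log2 ratio was 2.83 for Igf2r over Airn and -4.27 for Zrsr1 over Commd1, and the second was -2.62 from counts per annotated length. By posterior mean the leading share was 97.7% for Igf2r, 60.8% for Airn, 88.2% for Peg3, 99.9% for Snrpn, 94.4% for Blcap and 59.1% for Slc22a18. The count of imprinted genes that differed between the libraries was 11 with no fold requirement and 0 under 6 other settings. Of these, the settings of 4-fold and of 50 or more counts could not add a call, since every tested member was under 2-fold. The edgeR setting took its dispersion from the same 2 libraries. Over all genes 654 were called, against 421 with 50 or more counts, 169 at 4-fold, 114 by edgeR's negative binomial exact test and 7495 with no fold requirement. Without a library, ratios ran from 3.09 to 3.66 for Igf2r over Airn, 4.14 to 5.85 for Copg2 over Mest, -4.20 to -2.85 for Ube3a over Snrpn and -5.45 to -5.31 for Zrsr1 over Commd1. The library comparison could not be run without a library, since it needs both. No paired analysis was possible because the libraries form 1 group. Depth limits genes at 0 counts to below 3 counts, and 2 libraries of 1 biosample limit every SD.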

Other observations

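For Sfmbt2 and Inpp5f, 2 further imprinted genes, the transcript shares by TPM and by counts differed. Sfmbt2, a polycomb protein gene known for paternal expression in placenta, had 25.7 TPM in replicate 2 and 27.1 TPM in replicate 1, but a processed transcript of 367 bases held 84.5% of it in replicate 2 and 88.8% in replicate 1. Its main coding transcript had 3.67 TPM from 2005 counts in replicate 2 and 2.78 TPM from 1200.3 counts in replicate 1, beside 337.3 and 300.0 counts for the short one in replicates 2 and 1. Inpp5f, a phosphoinositide phosphatase gene, had 5.16 TPM in replicate 2 and 5.13 TPM in replicate 1. Its full-length coding transcript held 920.8 counts and 55.0% of the TPM in replicate 2 and 602.9 counts and 45.9% in replicate 1, and a shorter processed transcript held 213.6 counts and 33.3% in replicate 2 and 252.6 counts and 50.1% in replicate 1.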
